A study of Mus musculus with 16 samples.

Results

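Hearts of Chd7 fl/fl;Mesp1-Cre mouse embryos were compared between E11.5 and E13.5, to describe which changes of gene expression take place over these days when Chd7 has been removed from the mesoderm. The 8 mutant hearts, 4 at each stage, are 8 of the 16 samples of the series, and were taken as the arrays titled with this genotype and stage. The other 8 are control hearts, 4 at each stage. All are whole hearts of embryos labelled C57BL/6 (C57Bl/6 J in the paper's methods), with total RNA of 1 heart on each Affymetrix Mouse Gene 1.0 ST array. Mutants came from a cross of Chd7 fl/+;Mesp1-Cre with Chd7 fl/fl mice. The labels call the controls WT, without saying whether they carried Mesp1-Cre. The paper gives them as Chd7+/+;Mesp1-Cre in its results and methods. This cross cannot produce that genotype, and the paper's main text does not state the mating that gave the controls, so their parentage is not settled here. Mesp1-Cre acts in the anterior mesoderm and its descendants, so cells of other origin in the heart, such as neural crest and nerves, keep their Chd7. Between the stages, age and whatever else differed between the 2 sets of arrays cannot be told apart.

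CHD7 is an ATP-dependent chromatin remodeller, and its loss in people causes CHARGE syndrome, in which heart malformations are frequent. From E11.5 to E13.5 the mouse heart is septated, its trabecular and compact myocardium separate, the cushions begin to form valves, coronary vessels and nerves grow in, and macrophages settle. Cardiomyocytes gain mitochondria and enzymes of oxidative metabolism over the same period, while primitive red cells made in the yolk sac mature within the circulation.

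Values are log2 array levels, and 1 unit is a doubling. A gene is represented by its brightest probe set naming that gene alone, which gave 19937 genes. Unless stated otherwise the arrays were quantile normalised once more over all 16, because the deposited values of E13.5 arrays spread more widely (SD within an array 2.38 to 2.42) than those of E11.5 arrays (2.18 to 2.26). A gene was called higher or lower at E13.5 when the adjusted p (limma, Benjamini-Hochberg over 34760 probe sets) was under 0.05 and the log2 fold change (FC) over 0.5 in size. Mutant hearts varied more at E11.5, where 10 to 66 genes lay over 1 unit above the other 3 in a given heart and 14 to 43 below, than at E13.5 (2 to 8 and 3 to 6). Mutant E11.5 hearts 3 and 4 and control E13.5 heart 1, which an earlier account of these data found to stand apart, were also left out together.

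Among the 10 largest rises in the mutants were 4 microRNA genes, Mir145a, Mir382, Mir7-1 and Mir377. Mature sequences are shown first, because a microRNA's targets are set by its seed. None is shown for Mir145a, which the source of sequences used here did not list. The array probes are taken to lie in the hairpin or its precursor, so the values below are read as precursor RNA and not as mature strands. Probe positions were not checked. In the RefSeq sequences of GRCm38.p6, bases 2 to 8 (the seed) are in capitals. Mir382 and Mir377 lie in the imprinted microRNA cluster of chromosome 12, at chr12:109733771-109733846 and chr12:109740510-109740577. Mir7-1 lies at chr13:58392779-58392886. Mir208a, at chr14:54949060-54949142 within the cardiac myosin gene Myh6, was added after its values were seen.
mmu-miR-382-5p: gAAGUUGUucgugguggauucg
mmu-miR-382-3p: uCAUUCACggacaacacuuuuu
mmu-miR-377-5p: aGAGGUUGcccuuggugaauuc
mmu-miR-377-3p: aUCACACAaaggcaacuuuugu
mmu-miR-7a-5p: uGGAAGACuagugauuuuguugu
mmu-miR-7a-1-3p: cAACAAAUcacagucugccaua
mmu-miR-208a-5p: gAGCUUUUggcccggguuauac
mmu-miR-208a-3p: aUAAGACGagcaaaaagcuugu
No seed recurs among these strands. Another gene, Mir7-2 at chr7:78888277-78888373, yields the same miR-7a-5p as Mir7-1.

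Mir382 stood at 4.78, 4.33, 4.82 and 4.47 in E11.5 mutant hearts 1 to 4 and at 7.52, 7.45, 7.77 and 7.66 in those of E13.5, the order used throughout. This is an 8.02-fold rise (log2 FC 3.00 ± 0.16 SE, adjusted p = 1.6e-08), beside 2.58 in the controls. Mir377 rose from between 4.01 and 5.09 to between 6.91 and 7.43 (log2 FC 2.60 ± 0.21). Mir7-1 rose from between 5.44 and 6.07 to between 8.12 and 8.97 (2.89 ± 0.19), whereas Mir7-2, chosen after its values were seen, fell from between 6.54 and 6.87 to between 5.86 and 6.00 (-0.80 ± 0.11). The 2 genes of miR-7a-5p thus moved in opposite directions in the mutant hearts, and also in the controls (2.51 and -0.61). The largest rise of all named genes was that of Mir145a, which is highly expressed in smooth muscle, at 3.16 ± 0.33 from between 4.25 and 5.14 to between 7.0 and 8.85. Mir208a, a microRNA of cardiomyocytes, was at 4.28, 4.40, 4.82 and 4.02 at E11.5 and at 5.20, 5.71, 6.34 and 7.05 at E13.5 (1.70 ± 0.35, adjusted p = 0.00175), while its host gene Myh6 changed by -0.18 ± 0.12 (adjusted p = 0.272).

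The chromosome 12 cluster (39 measured microRNA genes, chr12:109571990-109743496) was set against the other 252 after the values had been seen, and no test was made. In the cluster 12 genes (30.8%) rose and 3 (7.69%) fell, and 11 of the rises and 3 of the falls were also called on both deposited and loess-normalised values. Of the other microRNA genes 18 (7.14%) rose and 57 (22.6%) fell. Mir380, Mir323 and Mir539 were other risers of the cluster, at 1.44, 1.29 and 1.28. Mir341 and Mir667, of the same cluster, fell by 1.26 and 0.92. Array levels of microRNA genes of 1 imprinted region therefore moved both ways.

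Chd7 itself was lower in mutants than in controls at both stages. In the mutants it was at 9.33, 9.83, 9.31 and 9.79 at E11.5 and at 8.87, 8.91, 8.78 and 8.95 at E13.5. Control means were 10.88 ± 0.15 (SD, n = 4) at E11.5 and 9.94 ± 0.24 at E13.5. No mutant heart reached a control heart of its stage. The mutant minus control difference was -1.31 ± 0.14 SE at E11.5 (adjusted p = 0.000988) and -1.06 ± 0.14 at E13.5 (adjusted p = 0.0276). Exact permutation gave two-sided p = 0.0286 for each, the smallest possible with 4 against 4. From E11.5 to E13.5 Chd7 fell by 0.69 ± 0.14 in mutants (adjusted p = 0.00205) and by 0.94 in controls. The fall in the mutants was -0.48 on the deposited values, which is below the threshold, and -0.06 as the median of its probe sets. Of the 30 probe sets that name Chd7 only, 8 fell and 3 rose, between -1.16 and 1.08. RNA that lacks the deleted part can still be read by probes elsewhere in the gene, and cells outside the Mesp1 lineage still make it. The parts of these in the remaining signal were not tested.

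The mutant heart changed widely over the 2 stages. At E13.5, 2308 of 19937 genes were called higher (11.6%) and 1941 lower (9.74%). These shares are the background against which the counts of each gene group below are read. Hearts of the 2 stages did not overlap in 3450 genes that were higher (17.3%) and 2843 that were lower (14.3%) at E13.5. On the deposited values 3350 genes (16.8%) were higher and 2544 (12.8%) lower, and 1935 and 1397 genes were called in the same direction on quantile, deposited and loess values alike. Without the 3 hearts that stand apart 2215 were higher and 1779 lower. The share of calls that were rises was 54.3%, against 65.2% when arrays were only centred on their medians (3942 higher, 19.8%, and 2104 lower, 10.6%).

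Controls changed in many of the same genes. They had 2274 genes higher (11.4%) and 1907 lower (9.57%), and of these 1593 and 1197 were also called in the mutants. The shared rises are 70.1% of the control and 69.0% of the mutant rises, and the shared falls are 62.8% and 61.7%. Of the genes that rose in controls, 99.1% had the same sign in mutants, with a median of 0.66 in mutants beside 0.70 in controls. Of those that fell in controls, 97.6% had the same sign (median -0.62 beside -0.70). By over 1 unit, 384 genes rose (1.93%) and 272 fell (1.36%) in mutants, and 357 rose (1.79%) and 291 fell (1.46%) in controls. Among the 357 such rises in controls, 324 (90.8%) were called higher in mutants, and among the 291 falls, 238 (81.8%) were called lower. Pearson's r between the mutant and the control change was 0.86 across the 19937 genes, which are not independent replicates. The genotypes share no sample, but both changes hold whatever else differed between the arrays of the stages. What part of the shared calls, the shared signs and r comes from this was not tested.

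**Figure D1:**
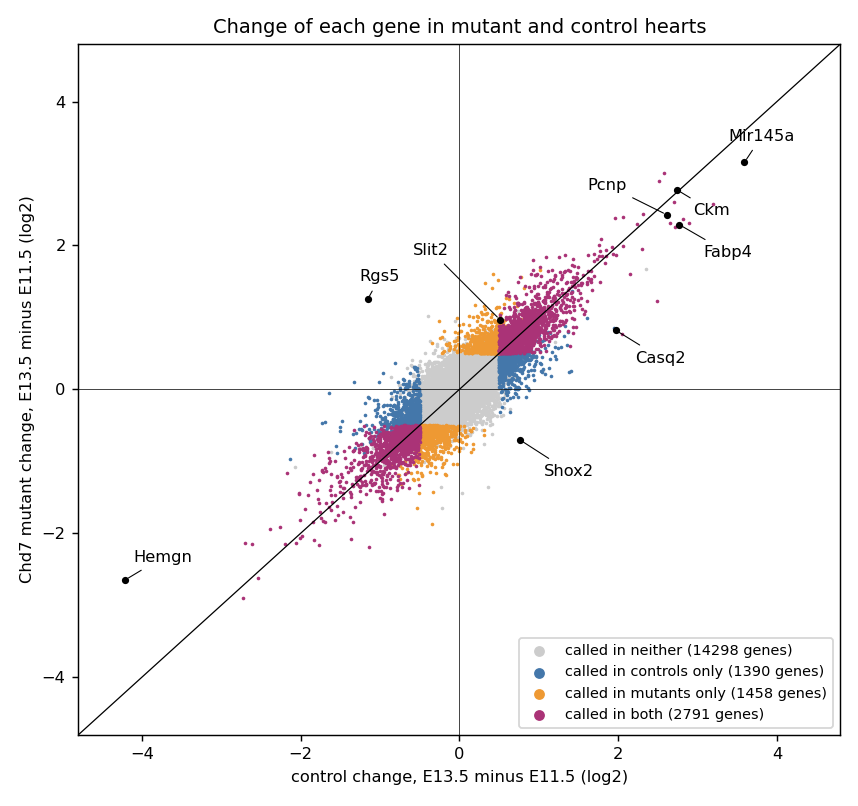
Each point is 1 of 19937 genes, placed by its log2 change from E11.5 to E13.5 in controls (x axis) and in Chd7 mutants (y axis), coloured by which genotype it was called in, with a line of equal change. Most called genes lie near the line (r = 0.86), while Rgs5 lies in the upper left quadrant, at -1.16 in controls and 1.25 in mutants.

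Each mutant heart was then placed along the change of the controls, with 0 at the control E11.5 mean and 1 at the control E13.5 mean, by least squares over the 4181 genes called in controls. This measure was added after the data had been seen, and no test was made. The genes and both marks came from the same control hearts. Such a choice can place other hearts above 0 at E11.5 and below 1 at E13.5, whatever their genotype. Mutant hearts 1 to 4 stood at 0.20, 0.06, 0.14 and 0.10 at E11.5 and at 0.98, 0.99, 0.96 and 1.04 at E13.5. Over the control rises alone the E13.5 mutants stood between 0.97 and 1.04, and over the control falls alone between 0.93 and 1.04. The E13.5 mutant hearts thus lay close to the control E13.5 mean on both sets. The control hearts, placed in turn along the mutant change, stood on average at 0.07 and 0.94, with the same limit. With deposited values the mutant means were 0.09 and 0.99.

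**Figure D2:**
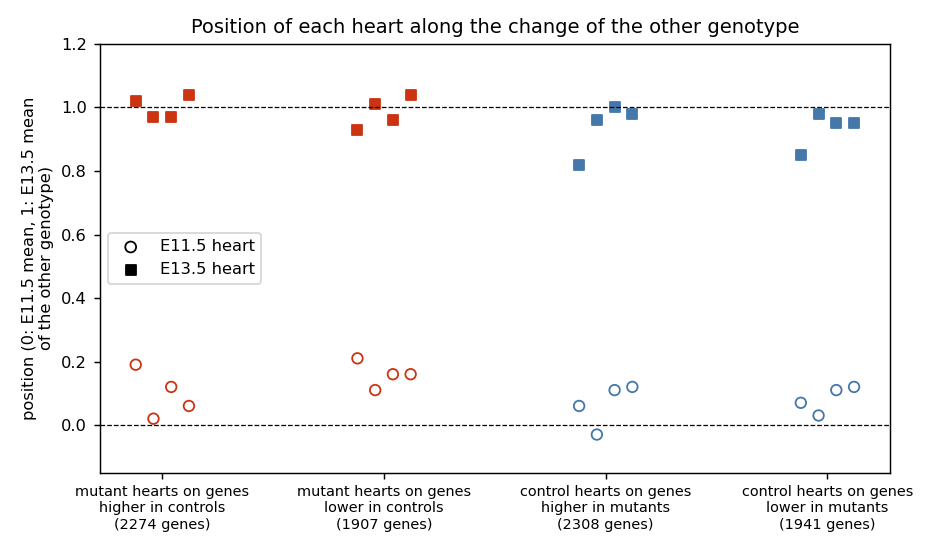
The y axis is the position of a heart on a scale from the E11.5 mean (0) to the E13.5 mean (1) of the other genotype, over the genes that the other genotype called higher or lower (x axis), with open circles for E11.5 and filled squares for E13.5 hearts. E13.5 mutants lie between 0.93 and 1.04, and E11.5 mutants between 0.02 and 0.21.

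Of 25 genes of muscle energy supply, 9 rose (36.0%) and none fell at these thresholds, while 8 had a change below 0, with a median log2 FC of 0.27 in mutants and 0.26 in controls, beside a median near 0 (0.011) over all genes. The muscle creatine kinase Ckm, which buffers ATP at the sarcomere, was at 8.62, 8.44, 8.85 and 7.45 at E11.5 and at 10.56, 11.52, 11.05 and 11.31 at E13.5. It rose 6.81-fold (2.77 ± 0.28, adjusted p = 4.88e-06), and the control change was 2.75. The oxygen carrier myoglobin (Mb) was at 9.25, 8.67, 9.34 and 8.66 and then at 10.50, 10.55, 10.36 and 10.74. This rise was 2.94-fold (1.56 ± 0.17, adjusted p = 1.1e-05) in mutants and 1.30 on the log2 scale in controls. Cox8b, a muscle form of a cytochrome oxidase subunit, rose by 1.27 ± 0.22, beside 0.59 in controls, which was not called. Its mean was 8.69 in mutants beside 9.88 in controls at E11.5, and 9.95 beside 10.47 at E13.5. Fabp3, Pgam2 and Trim63 rose by 0.75, 0.72 and 0.65.

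Fatty acid use was the metabolic list with the highest share of rises. Of 35 genes, 16 rose (45.7%) and 1 fell (2.86%), with a median of 0.44 beside 0.38 in controls. On deposited values 22 rose, where 16.8% of all genes rose. In the tenth of genes at 9.72 to 10.51, which held the median level of this list, 26.8% rose on those values. The members that rose cover uptake, transport and each step of beta-oxidation. Lipoprotein lipase (Lpl), which releases fatty acids from lipoproteins, went from 9.53, 9.72, 9.39 and 9.26 to 10.51, 10.56, 10.52 and 10.75 (1.11 ± 0.15, adjusted p = 8.48e-05). The carnitine-acylcarnitine carrier Slc25a20 rose by 0.97 ± 0.11 and the acyl-CoA thioesterase Acot2 by 0.96 ± 0.11. Acyl-CoA dehydrogenases Acadvl, Acads and Acadl rose by 0.87, 0.73 and 0.51, the hydratase Echs1 by 0.91, and Hadh and Acaa2, which take the last steps, by 0.60 and 0.56. Ppara, a nuclear receptor that controls many of these genes, rose by 0.90 beside 0.47 in controls. The coactivator Ppargc1a rose by 0.52 ± 0.13 (adjusted p = 0.00819), at the fold threshold, and was below it without E11.5 heart 1 (0.40) or E13.5 heart 4 (0.48). The carnitine palmitoyltransferase Cpt1a, the entry step to mitochondria, gave 0.03 ± 0.11 (adjusted p = 0.861). Ucp3, a mitochondrial carrier at a low level here (5.27 to 6.53), was the only member called lower, at -0.63, and not without any 1 of E11.5 hearts 1 and 4 and E13.5 hearts 3 and 4.

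Respiratory chain genes went both ways. Of 67 genes of the complexes, 9 rose (13.4%) and 8 fell (11.9%), both near the background, and every one of these 17 calls except that of Ndufv3 was also made in controls. Ndufa13 was at 10.41, 9.55, 9.63 and 9.61 at E11.5 and at 11.09, 11.40, 11.34 and 11.05 at E13.5 (1.42 ± 0.17). Its partner in complex I, Ndufa7, went from 10.71, 10.49, 11.06 and 10.53 down to 9.56, 9.23, 10.10 and 9.30 (-1.15 ± 0.17), and the hearts of the stages did not overlap for either. Ndufs6 rose by 1.05, and the ATP synthase subunit Atp5k fell by 0.86. The balance of the list depends on the normalisation, with 22 rises and 4 falls on the deposited values. On those values 16.8% of all genes rose and 12.8% fell. In the brightest 10% of genes by level, 27.0% rose and 2.81% fell. Glycolysis had 4 rises (Tpi1, Pfkm, Pfkp and Aldoc, at 0.87, 0.63, 0.58 and 0.51) and no fall at these thresholds among 17 genes. Pfkp and Aldoc lie close to the threshold, and without E13.5 heart 4 the list has 2 rises.

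**Figure D3:**
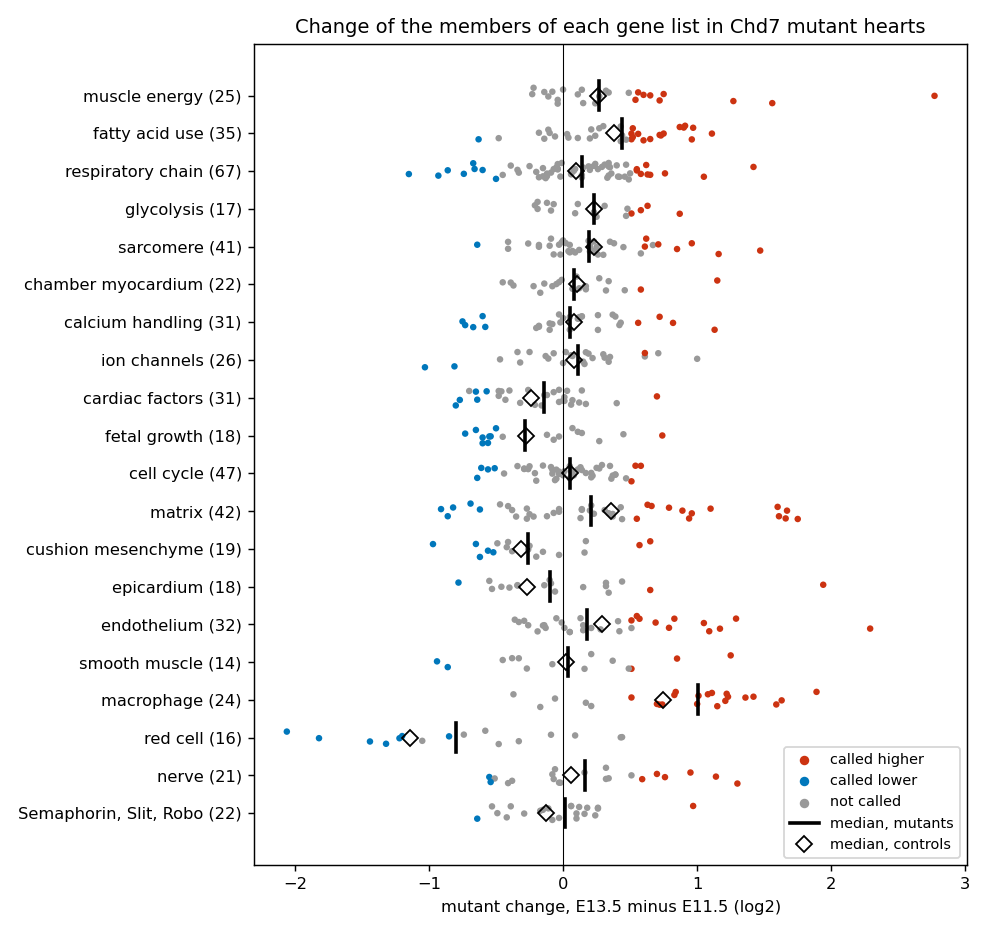
Each point is a gene, placed by its log2 change in mutant hearts (x axis) in the row of its list, with the number measured in brackets, red if called higher, blue if lower and grey if neither. Bars give the median of the list in mutants and diamonds that in controls. Macrophage genes have the highest median (1.00) and red cell genes the lowest (-0.80), and the diamonds stay near the bars in most rows.

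Contractile genes changed only in part. Of 41 sarcomere and Z-disc genes 7 rose (17.1%) and 1 fell (2.44%), beside 9 and 0 in controls. The major myosin heavy chains were already near the top of the scale, Myh6 at 12.13 to 12.70 and Myh7 at 12.73 to 13.21 over all 8 mutant hearts, with changes of -0.18 ± 0.12 and 0.20 ± 0.10 that did not pass. The cardiac troponin T gene Tnnt2 was at 13.22 to 13.64 and changed by 0.23 ± 0.08 (adjusted p = 0.0299), under the fold threshold. Values this high may be compressed on an array, which was not tested. Tnnt1, the slow skeletal troponin T, was at 9.27, 8.83, 9.29 and 8.85 and rose to 10.25, 10.43, 10.77 and 10.68 (2.77-fold, 1.47 ± 0.18, adjusted p = 2.58e-05). Myom2, an M-band protein, rose by 1.16 ± 0.22, Tpm2 and Tpm1 by 0.85 and 0.71, and Myoz2, a Z-disc protein, by 0.62 beside 1.01 in controls. Nebl, which encodes the thin filament protein nebulette, fell by 0.64 ± 0.12 (adjusted p = 0.00104) from between 10.98 and 11.48 to between 10.42 and 10.78. Its change in mutants was -0.41 on deposited values, and that in controls was -0.42, neither of them called.

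In the list of chamber and trabecular genes 2 of 22 (9.09%) rose, below the share of all genes, and 0 fell. Gja5, the connexin of trabeculae and the conduction system, was at 10.73, 10.82, 10.77 and 10.34 and then at 11.74, 11.90, 11.89 and 11.72 (1.15 ± 0.10, adjusted p = 1.87e-06). The compact layer repressor Hey2 rose by 0.58 ± 0.11. Nppa, the atrial natriuretic peptide of trabeculae and atria, was higher in every E13.5 heart (13.30 to 13.44) than in any at E11.5 (12.91 to 13.29), and its change of 0.34 ± 0.10 was under the fold threshold. Nppb gave -0.17 ± 0.26, with E11.5 heart 4 at 12.75 and the other 3 at 11.46 to 11.76.

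Calcium handling genes rose in 4 cases (12.9%) and fell in 5 (16.1%) of 31. S100a1, a calcium sensor of the sarcoplasmic reticulum, was at 10.87, 10.26, 10.33 and 10.36 and then at 11.40, 11.60, 11.77 and 11.56 (1.13 ± 0.13, adjusted p = 2.01e-05). Calsequestrin 2 (Casq2), the calcium store of the sarcoplasmic reticulum, went from 11.65, 11.09, 11.54 and 11.05 to 12.11, 12.20, 12.08 and 12.24 (0.82 ± 0.16, adjusted p = 0.00111). In controls it rose by 1.97, from a mean of 9.65 to 11.61, so that the mutant hearts were above the control mean at both stages. Camk2d and Cacng7 rose by 0.56 and 0.72. The ryanodine receptor Ryr2, which releases the stored calcium, fell by 0.58 ± 0.20 (adjusted p = 0.0336), with overlap between the stages, with no call on deposited values (-0.34) and none without any 1 of 5 hearts (E11.5 hearts 2 and 4 and E13.5 hearts 1, 2 and 4). Hrc, Camk2a, Tmem38b and Cacna2d2 fell by 0.73, 0.75, 0.67 and 0.60. The calcium pump Atp2a2 (0.11 ± 0.08) and Trdn (0.43 ± 0.13), an anchor of the release complex, did not pass. On deposited values, where 16.8% of all genes rose and 12.8% fell, the list had 6 rises and 2 falls. Without E13.5 heart 2 it had 3 falls.

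Among 26 ion channel and conduction genes the pacemaker channel Hcn4 had the largest fall. It was at 10.43, 10.62, 10.58 and 10.47 at E11.5 and at 9.65, 9.53, 9.64 and 9.15 at E13.5 (-1.03 ± 0.14, adjusted p = 5.57e-05), beside -0.69 in controls. Gjd3, a connexin of the conduction system, fell by 0.81 ± 0.11, and Kcnip2, a subunit of the transient outward potassium channel, rose by 0.61 ± 0.16, a call lost without E13.5 heart 4. Scn4b gave -0.34 ± 0.18 and Kcne3 1.00 ± 0.41, neither past the test, though without E11.5 heart 4 both were called (-0.51 and 1.48).

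**Figure D4:**
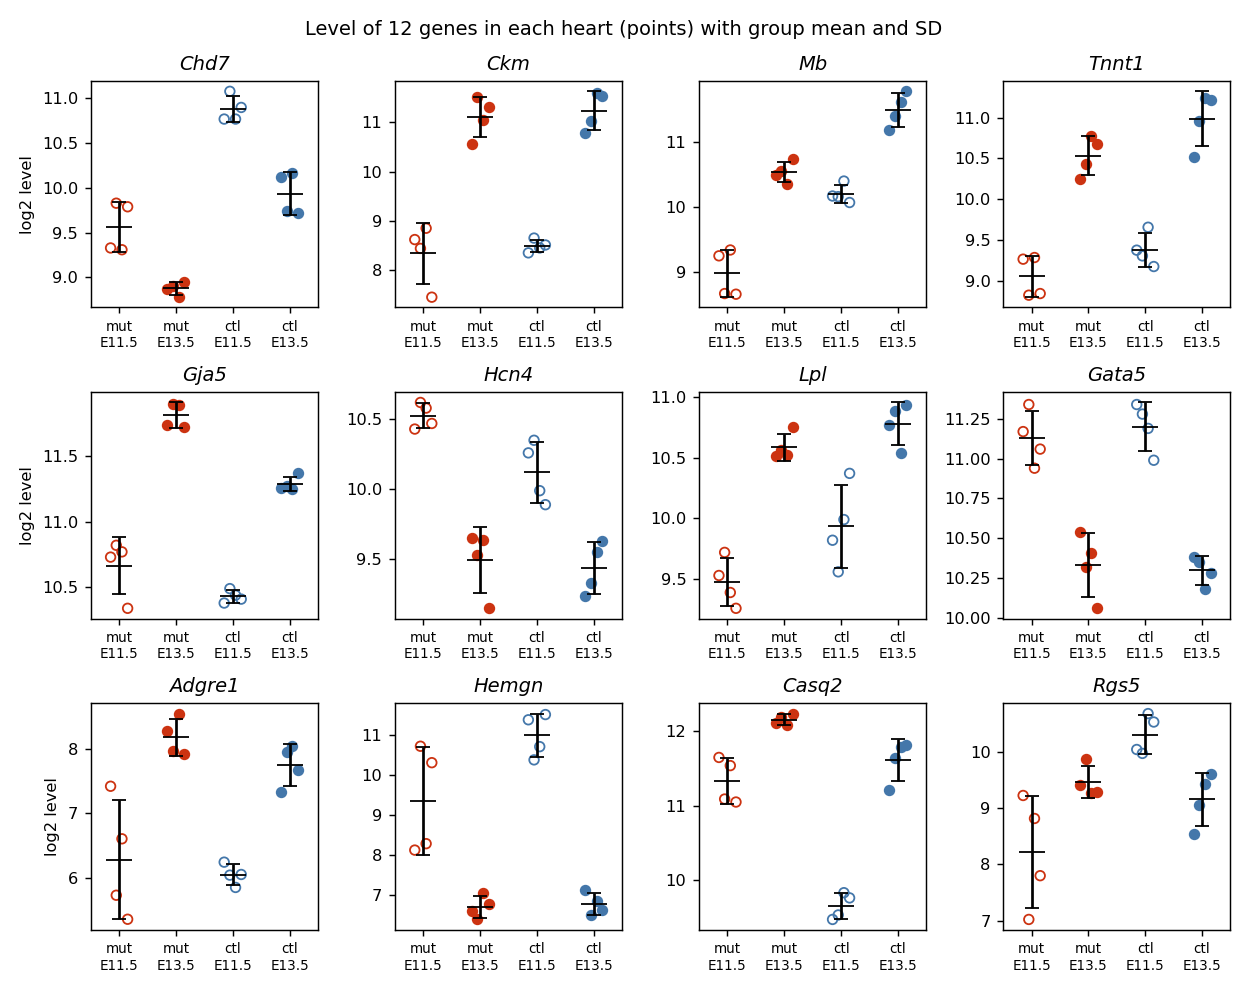
Log2 level (y axis) of 12 genes in each of the 16 hearts, as open points for E11.5 and filled points for E13.5, red for mutants and blue for controls, with the group mean and SD. Ckm, Mb, Tnnt1, Gja5, Lpl and Adgre1 are higher and Hcn4, Gata5 and Hemgn lower at E13.5 in both genotypes, while Rgs5 rises in mutants and falls in controls.

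Of 31 cardiac transcription factors, 1 rose (3.23%) and 5 fell (16.1%). Gata5, a factor of endocardium and early myocardium, was at 11.17, 11.34, 10.94 and 11.06 and then at 10.54, 10.32, 10.41 and 10.06 (-0.80 ± 0.12, adjusted p = 0.000169). Nr2f1 and Nr2f2, nuclear receptors of atrial identity, fell by 0.77 and 0.64, Tbx2, a repressor of chamber genes in the atrioventricular canal, by 0.65, and Srf by 0.57. Without E13.5 heart 4 the change of Nr2f1 is -0.64 and is not called. Mef2a, a muscle factor, rose by 0.70 ± 0.09 from between 11.22 and 11.45 to between 11.86 and 12.13. Nkx2-5 (0.40 ± 0.10) and Gata4 (-0.48 ± 0.09) had adjusted p of 0.00585 and 0.000585 and fell short of the fold threshold, and Isl1, a factor of second heart field progenitors, gave 0.14 ± 0.15. The sinus node factor Shox2 gave -0.70 ± 0.31 (adjusted p = 0.097) beside 0.76 in controls, and was called without E13.5 heart 1 (-0.94). With deposited values 2 factors rose and 2 fell.

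Of 18 genes of fetal growth and developmental timing, 8 fell (44.4%) and 1 rose (5.56%), with a median of -0.29 beside -0.27 in controls. Hmga2, a chromatin protein of immature cells, was at 10.99, 11.07, 11.02 and 11.43 and then at 10.70, 10.42, 10.38 and 10.39 (-0.65 ± 0.13, adjusted p = 0.00149). Arid3a fell by 0.73, Trim71 and Peg10 by 0.60, Lin28b, an inhibitor of let-7 processing, by 0.56, and the growth factor Igf1 and its receptor Igf1r by 0.54 and 0.55. Dlk1, a paternally expressed Notch ligand homologue, rose from 11.19, 10.72, 10.96 and 10.77 to 11.82, 11.45, 12 and 11.35 (0.74 ± 0.14), beside 0.24 in controls. Lin28b's call is lost without E11.5 heart 2 or E13.5 heart 2. Without E11.5 heart 2, or without E11.5 heart 4, the falls were 4. On deposited values, where 12.8% of all genes fell, 3 genes of the list fell and 2 rose. The median level of the list in a mutant heart was 10.66 to 11.27. It thus lay within the brightest 10% of genes (from 10.51), where 27.0% rose and 2.81% fell on those values.

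Of 17 splicing regulators 1 rose and 1 fell (5.88% each), with 4 rises on deposited values, 4 in controls and 0 without the 3 hearts that stand apart. Rbpms2 fell by 0.75 ± 0.13 in hearts that did not overlap between the stages, and Rbfox1, at a low level, rose by 0.64 ± 0.17, a call lost without E11.5 heart 4. Rbm20, which directs titin splicing, gave 0.04 ± 0.13.

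The cell cycle list had few calls, with 3 rises (6.38%) and 4 falls (8.51%) among 47 genes, both below the share of all genes. Mcm4, part of the replicative helicase, fell by 0.61 ± 0.09 E2f8 by 0.64 ± 0.11, the kinetochore motor Cenpe by 0.56 and Mcm6 by 0.51. Ccnd3 rose by 0.58 ± 0.11, and Aurkb and Cdk1, mitotic kinases, by 0.54 and 0.51. Both of these calls are lost without any 1 of E11.5 heart 4 and E13.5 hearts 2 and 4, and that of Cdk1 also without E11.5 heart 3. Without E11.5 heart 2 the list had 2 falls, and without E11.5 heart 4 or E13.5 heart 2 it had 1 rise. The proliferation marker Mki67 was at 10.95, 11.73, 10.87 and 11.18 and then at 10.88, 10.79, 10.94 and 11.09 (-0.26 ± 0.16, adjusted p = 0.229), beside -0.64 in controls. On deposited values 11 genes rose and 0 fell, so the calls of this list depend on the normalisation. On those values 16.8% of all genes rose and 12.8% fell. In the brightest 10% of genes by level, 27.0% rose and 2.81% fell, so these counts are not read as a direction of the list. None of 6 measured inhibitors of cyclin-dependent kinases passed, with Cdkn1c at -0.41 ± 0.10 and Cdkn1b at 0.15 ± 0.10.

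E11.5 mutant heart 4 stood apart in genes induced by low oxygen. The median level of 22 such genes was 10.55 in this heart, 9.09 to 9.27 in the other 3 at E11.5 and 9.37 to 10.02 at E13.5. Stc1 was at 10.13 there and at 8.13 to 8.44 in the other 3, and Ddit4 at 10.77 beside 9.15 to 9.24. None of the 22 genes was called in the mutants (median 0.09), while 6 rose without E11.5 heart 4, and 7 without the 3 hearts that stand apart. Whether the state of this heart or its handling bears on it was not tested.

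Extracellular matrix genes moved both ways. Of 42 genes 13 rose (31.0%) and 5 fell (11.9%), and 12 and 5 of these calls were shared with controls. Ogn, a small proteoglycan, was at 9.03, 7.67, 8.05 and 6.88 and then at 9.70, 9.52, 10.01 and 9.41 (1.75 ± 0.36, adjusted p = 0.00184). Elastin (Eln) went from 9.78, 7.94, 9.91 and 8.44 to 10.38, 10.86, 10.64 and 10.85 (1.67 ± 0.36), and Lum, Thbs2, Fbln5 and Dcn rose by 1.66, 1.61, 1.60 and 1.10. At E11.5 hearts 1 and 3 were above hearts 2 and 4 in Ogn, Eln and Lum (9.29, 7.21, 9.29 and 6.53), which makes their errors wide. Dpt, which encodes dermatopontin and was among the 10 largest rises of all genes, went from between 5.18 and 6.86 to between 8.34 and 8.97 (2.57 ± 0.29). Hapln1, which links hyaluronan to proteoglycans, fell by 0.91, Col2a1 by 0.86, the protease Adamts9 by 0.82, versican (Vcan) by 0.69 and Tnc by 0.62. The fall of Vcan, with overlap between the stages, is lost on deposited values and without any 1 of E11.5 hearts 2 and 4 and E13.5 hearts 2 and 3. The list had 3 falls on deposited values, and also without E11.5 heart 4 or E13.5 heart 2. The major fibrillar collagen Col1a1 gave -0.35 ± 0.19.

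Cushion and valve mesenchyme genes fell in 5 of 19 (26.3%) and rose in 2 (10.5%). Snai1, a driver of epithelial-mesenchymal transition, was at 9.48, 9.6, 9.89 and 9.70 and then at 8.83, 8.68, 8.53 and 8.74 (-0.97 ± 0.14, adjusted p = 9.76e-05). Has2, the hyaluronan synthase of the cushions, fell by 0.62, Prrx2 by 0.65, Nfatc1 by 0.56 and Twist1 by 0.52. Postn, a matrix protein of maturing valves, rose by 0.57 ± 0.12, a call lost without E11.5 heart 2. On deposited values 1 gene of the list fell, and without E11.5 heart 4 or E13.5 heart 4 there were 3 falls. In the epicardium list 2 of 18 rose (11.1%) and 1 fell (5.56%), against 4 rises without E11.5 heart 4 and 4 falls without E13.5 heart 3. Msln, a mesothelial surface protein, was at 8.05, 6.67, 7.65 and 7.37 and then at 9.10, 8.92, 10.09 and 9.36 (1.94 ± 0.29, adjusted p = 0.000146), and Tbx18 rose by 0.65. The progenitor factors Wt1 and Tcf21 both gave -0.34, not past the test, and Upk1b fell by 0.78 ± 0.27 with overlap between stages, a call lost without any 1 of E11.5 hearts 1 and 4 and E13.5 hearts 2 and 4.

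Endothelial genes rose in 11 of 32 cases (34.4%) and fell in 0, and all 11 rose in controls too. In whole hearts, more cells of a type and more RNA per cell cannot be told apart, here and for every cell type below. Fabp4, a fatty acid carrier of capillary endothelium, was at 7.35, 6.01, 6.45 and 6.14 and then at 8.52, 8.89, 8.79 and 8.93 (4.89-fold, 2.29 ± 0.28, adjusted p = 2.49e-05). Apln, a ligand of sprouting vessels, rose by 1.29 ± 0.24, the guidance receptor Robo4 by 1.17 ± 0.13, the tight junction protein Cldn5 by 1.09, and the arterial Notch ligand Dll4 by 0.69. The general endothelial markers were not called, Pecam1 at -0.01 ± 0.13 and Cdh5 at -0.05 ± 0.11. Among 14 smooth muscle and pericyte genes 3 rose (1 without E11.5 heart 2) and 2 fell. Notch3, a receptor of mural cells, and Tagln, an actin-binding protein of smooth muscle and early myocardium, fell by 0.94 ± 0.13 and 0.86 ± 0.17, whereas Itga8 rose by 0.85. Acta2 (-0.08 ± 0.10) and Myh11 (-0.33 ± 0.38) did not pass.

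Of 24 macrophage markers 19 rose (79.2%) and 0 fell, with a median of 1.00 beside 0.75 in controls, where 17 of the same 19 rose. The median level of the list was 6.53 to 7.48 in the E11.5 and 8.0 to 8.42 in the E13.5 mutant hearts. Adgre1, which encodes a surface receptor of macrophages, was at 7.42, 5.74, 6.61 and 5.37 and then at 8.27, 7.96, 8.54 and 7.92 (3.70-fold, 1.89 ± 0.33, adjusted p = 0.000552). The complement genes C1qc and C1qb rose by 1.63 and 1.42, Fcer1g by 1.59 and the mannose receptor Mrc1 by 1.36. Csf1r, the receptor for the macrophage growth factor, rose by 0.74 ± 0.23 with overlap between stages, a call lost without any 1 of E11.5 hearts 2 and 4 and E13.5 hearts 1 and 3. Of 9 neutrophil genes 3 rose and 1 fell, with 5 rises without E13.5 heart 4, 1 on deposited values and 1 in controls. Ngp rose by 1.61 ± 0.48, with E13.5 heart 3 at 8.71 and E13.5 heart 4 at 5.80, and was not called (adjusted p = 0.0649) once the 3 hearts were left out.

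Of 16 red cell genes, 7 fell (43.8%) and 0 rose, all 7 also in controls, with a median of -0.80 beside -1.14. Hemgn, a nuclear protein of erythroid precursors, was at 8.12, 10.71, 8.28 and 10.30 and then at 6.61, 6.39, 7.04 and 6.78. Its 6.26-fold fall (-2.65 ± 0.48, adjusted p = 0.000686) was the largest among the named genes, and at E11.5 hearts 2 and 4 were over 2 units above hearts 1 and 3. Rhag, Ermap, Klf1 and Gata1 fell by 2.06, 1.82, 1.44 and 1.2. Of the embryonic globins, Hbb-bh1 gave -0.58 ± 0.31 (adjusted p = 0.161) and was called lower in controls (-1.50, adjusted p = 0.00187). Hbb-y was at 13.76 to 14.06 in all 8 hearts, near the top of the array's range, where a change may not be seen. Of 8 platelet genes 1 (Itgb3, -0.71 ± 0.26, adjusted p = 0.0466) was called lower, and its call was lost without any 1 of 9 hearts, among them E11.5 heart 4 (-0.51).

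Nerve and glia genes rose in 6 of 21 cases (28.6%) and fell in 2 (9.52%). The rises were 4 on deposited values, where 16.8% of all genes rose, 3 without the 3 hearts that stand apart and 3 in controls. In the tenth of genes at 6.29 to 6.95, which held the median level of this list, 8.68% rose on deposited values. Fabp7, a marker of glial precursors, was at 8.13, 7.39, 7.25 and 7.83 and then at 8.94, 9.08, 8.84 and 8.95 (1.30 ± 0.20, adjusted p = 0.000159). Uchl1 went from between 8.76 and 9.15 to between 10.03 and 10.19 (1.14 ± 0.11), and the neuronal genes Stmn2, Nefl, Phox2a and Nefm rose by 0.95, 0.76, 0.70 and 0.59. In controls Stmn2 changed by -0.25 and Nefl by 0.11. Tyrosine hydroxylase (Th) and Gfra3 were called lower at -0.55 and -0.54, at levels between 5.86 and 7.26. The call of Th is lost without E11.5 heart 3 or 4, and that of Gfra3 without E11.5 heart 3 or E13.5 heart 4. The glial factor Sox10 gave -0.08 ± 0.18.

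Of 22 Semaphorin, Slit, Robo and receptor genes, 1 rose and 1 fell (4.55% each), with 3 falls without E11.5 heart 2 and 4 without E13.5 heart 3. The guidance ligand Slit2 was at 9.24, 9.37, 9.59 and 9.52 and then at 10.39, 10.52, 10.34 and 10.37 (1.96-fold, 0.97 ± 0.11, adjusted p = 1.08e-05). Controls rose by 0.51, from 10.44 to 10.95, and every mutant heart at E13.5 was still below the control mean of that stage. Its receptor Robo1 fell by 0.64 ± 0.15 in mutants and by 0.62 in controls. On deposited values the mutant change of Robo1 was -0.40 and was not called. Robo2 gave 0.10 ± 0.16 beside -0.51 in controls. The class 3 Semaphorins Sema3c, a ligand of outflow tract patterning, and Sema3a, a repellent of sympathetic axons, gave -0.49 ± 0.16 and -0.03 ± 0.11, neither past the thresholds. Slitrk5 (-0.29 ± 0.11) and Slitrk6 (0.16 ± 0.23) did not pass.

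The difference between the genotypes in their stage change (mutant change minus control change) was tested for every gene. It was called for 0 genes by limma at an adjusted p under 0.05, and 813 genes (4.08%) had an unadjusted p under 0.05. The smallest adjusted p was 0.662. The unadjusted 95% interval of the difference reached a median of 0.44 to either side, and differences well above this, such as those of Casq2 and Rgs5 below, did not pass the adjustment. Casq2 had the smallest unadjusted p, with a difference of -1.14 ± 0.22 (95% interval -1.62 to -0.67, unadjusted p = 0.000128).

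Rgs5, a regulator of G-protein signalling in pericytes, was the 1 gene called in opposite directions. It was at 9.23, 7.02, 8.82 and 7.80 in mutants at E11.5 and at 9.42, 9.88, 9.28 and 9.29 at E13.5 (1.25 ± 0.38), while controls fell by 1.16 from a mean of 10.32. The difference was 2.41 (95% interval 1.25 to 3.56, unadjusted p = 0.000463). The mutant rise is not called without E11.5 heart 2 (0.85), E11.5 heart 4 (1.11) or E13.5 heart 2 (1.11). Other genes of the lists with an unadjusted p under 0.05 included Shox2 at -1.47 (-2.41 to -0.52, unadjusted p = 0.00474), Stmn2 at 1.21 (0.39 to 2.02, unadjusted p = 0.0067), Slit2 at 0.46 (0.14 to 0.78, unadjusted p = 0.00766), the calcium channel gene Cacna1e, at a low level, at 0.46 (0.14 to 0.79, unadjusted p = 0.00817), and Robo2 at 0.60 (0.11 to 1.09, unadjusted p = 0.0197). Between Shox2 and Robo2 in order of p also lay Nefl (0.65, unadjusted p = 0.00683), Xirp2 (-0.84, unadjusted p = 0.00975) and E2f2 (0.77, unadjusted p = 0.0113). None of these passed the adjustment. Where intervals were narrow they bound the difference in array level. For Myh7 it lay between -0.34 and 0.29 and for Gata4 between -0.30 and 0.22. For Sdha it lay between -0.29 and 0.24 and for Mcm4 between -0.33 and 0.23. Near the top of the scale, as for Myh7, values may be compressed, so such an interval does not bound the difference in RNA.

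**Figure D5:**
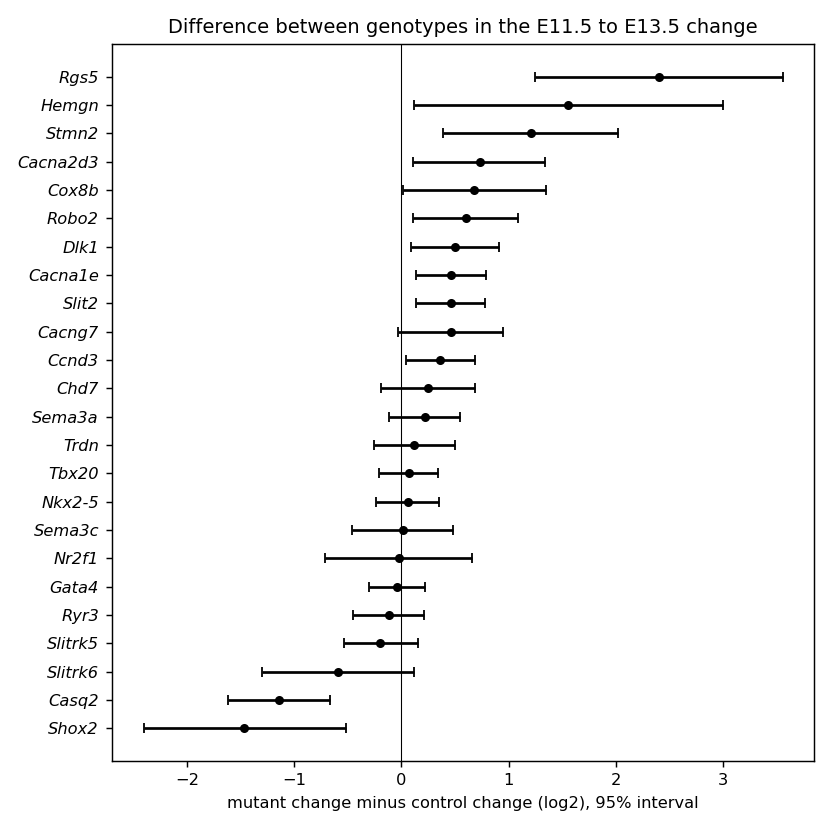
Points are the mutant change minus the control change from E11.5 to E13.5 (x axis, log2) for genes that the study named and others described in the text (y axis), with 95% intervals from limma. Casq2 and Shox2 lie below 0 and Rgs5, Stmn2, Robo2 and Slit2 above, with no gene past the adjustment for all probe sets.

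Of the 10 largest rises, those not yet given were Snord37 (2.44), a small nucleolar RNA, Pcnp (2.43), a nuclear protein at 9.49 to 9.84 at E11.5 and 12.02 to 12.15 at E13.5, Asb11 (2.40) and the interferon-inducible Ifi207 (2.38). Controls changed by 2.32, 2.61, 2.05 and 1.97 in these genes. The size of the Pcnp rise depends on the processing. It was 2.64 on deposited values but as low as 1.01 among the alternatives listed below, though its call was kept in all of them. The other large falls were Krtap5-3 (-2.62), Olfr559 (-2.19), Olfr739 (-2.16), Krtap1-5 (-2.15), Acp5 (-2.14), the histone gene H2bc22 (-2.14), Ly6f (-2.07) and the hepcidin gene Hamp2 (-1.92). In choosing the 10 of each direction, 5 predicted genes, RIKEN clones and pseudogenes were passed over.

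Several of these falls belong to families of dim probe sets. Of 1027 olfactory receptor genes, with a median level of 4.71, 313 (30.5%) were lower and 7 (0.682%) higher in mutants, and of 44 keratin-associated protein genes 22 were lower. These families were counted after their values were seen. Over all genes the median change of the dimmest 10% by level was -0.16, against 0.07 for the brightest 10%, and on deposited values these were -0.41 and 0.28. Falls of dim genes therefore accompany the difference in spread between the stages, and what part of them is transcription was not tested.

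Of the tissues that could be carried along in dissection, liver genes gave 1 rise in 7 (Ahsg, 1.34 ± 0.23), with albumin (Alb) at 5.06 to 6.98 and then 6.77 to 8.10 (1.37 ± 0.51, adjusted p = 0.0516). None of 6 foregut genes was called, and of 4 skeletal muscle factors Myod1 fell by 0.73 ± 0.23, a call lost without any 1 of E11.5 heart 2 and E13.5 hearts 1 and 4. Cardiomyocyte markers were high in all 8 hearts, and none of 6 was called. Among the mutants, Y-linked genes were high in 2 hearts of E11.5 and in 1 of E13.5, so sex differs in its mix between the stages. In the controls they were high in every E11.5 heart, but at E13.5 only in hearts 4 and 5. The mix of the sexes thus also differed between the stages in controls, and between the genotypes. With a Y-linked covariate 2300 genes were higher and 1927 lower in mutants, and 2238 and 1871 in controls.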

How the data were processed

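RMA (affy package) and limma are named in the submitters' processing notes, and the authors deposited log2 values per probe set. Versions are not given in the sources used here. Exact values recur between any 2 arrays (517 to 1943 probe sets a pair), also between stages, so a single normalisation target is likely although the spread differs by stage. Probe-level files were not used here. The genes and lists were chosen with earlier results of these data known.

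All 16 arrays were quantile normalised over each other and fitted in limma 3.58.1 (R 4.3.3), giving every group its own mean (residual df 12). Of 34760 probe sets, 21640 name 1 gene, 1321 several and 11799 none, by the platform annotation, with symbols updated by Entrez ID for 21553. The difference between genotypes had no threshold on the fold change. Named were Chd7, the 10 largest rises and falls called on quantile, deposited and loess values without overlap of hearts, and in each list the first 2 members, the 3 largest changes, up to 3 called against the majority, and genes the study named. The 4 hearts of a group limit the precision. The labels do not say whether hearts share a litter. The fit was tested on simulated data. The design had assumed that the stages might have been normalised apart. Positions along the change of the other genotype are least-squares slopes through 0. Python 3.11.15 with matplotlib 3.10.9 served for plots.

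The alternatives were deposited, loess-normalised or median-centred values, a trended and robust prior, array weights, leaving out dim probe sets (below percentile 40), a median over each gene's probe sets, the mutant arrays alone, the replicate block, a Y-linked covariate, a log2 fold threshold of 1 or none, and leaving out each heart, or the 3 hearts (mutant E11.5 hearts 3 and 4 and control E13.5 heart 1) that an earlier account found to stand apart.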

Additional observations from a re-analysis of the deposited data

Results flagged for a closer look

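In 24 of 346 groups of 4 mutant hearts tested over the named genes (6.94%), 1 heart lay far from the other 3, by a measure that chance meets in about 1 of 20 groups. E11.5 heart 4 was high in Nppa (13.29), Hk2 (10.72), Pfkp (11.12), Stc1 (10.13), Ddit4 (10.77), Cdkn2d (9.18) and Pecam1 (10.78), and low in Sema3a (8.77). Hk2, Pfkp, Stc1 and Ddit4 respond to low oxygen or belong to glycolysis, and this is the heart with the raised low-oxygen list. E11.5 heart 1 was high in S100a1 (10.87), Ndufa13 (10.41) and Nkx2-1 (6.94) and low in Cdh5 (11.54). E11.5 heart 2 was high in Atp2a2 (13.06), Ccnd1 (11.63) and Myod1 (8.19) and low in Hamp2 (8.62). At E13.5, heart 1 was high in Hmga2 (10.70), heart 2 was high in Cdkn2c (9.20), heart 3 was low in Cpt1a (10.16), Cdh5 (11.54) and Robo4 (8.14), and heart 4 was high in Tbx20 (12.35) and low in Sox10 (6.48) and Gfra3 (5.86).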

How the results depend on the processing

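Of the alternatives run on the named genes other than Chd7, 4637 values kept direction and call, 173 lost the call, 91 gained it and 63 changed sign, the last all of genes that were not called. Leaving out 1 heart gave 2115 to 2388 mutant genes higher and 1625 to 1986 lower, 2025 to 2317 and 1644 to 1951 in controls, 1457 to 1614 and 1061 to 1194 shared, 0 to 1 different between genotypes (B130024G19Rik, without mutant E11.5 heart 3) and a Chd7 change of -0.78 to -0.60. Of 101 named genes called, 22 lost the call without some heart, and 17 that were not called gained it (Alb, Epcam, Foxa2, Gata4, Gja1, Hbb-bh1, Higd1a, Kcne3, Ppbp, S100a8, Scn4b, Sema3c, Sema3d, Shox2, Stc1, Trdn and Wt1). Shared rises were 2621 on deposited values. Centring gave 3942 rises in mutants, 3786 in controls and 3100 shared. Without dim probe sets 1241 mutant genes fell. Over a log2 FC of 1, 384 rose and 272 fell in mutants, 357 and 291 in controls, 225 and 150 in both. With no fold threshold these were 3675 and 3075, 3701 and 3043, 2796 and 2114. Chd7 (-0.69) missed the threshold of 1 and, at -0.48, -0.43 and -0.06, that of 0.5 on deposited, on centred values and as the median of its probe sets. Signs changed on deposited values for Nppb (0.03), Ndufs1 (0.17), Vegfa (0.21), Ccnd1 (0.20), Pecam1 (0.22), Cdh5 (0.17), Acta2 (0.04), Sema3a (0.18), Myog (-0.09), Slitrk6 (-0.13) and Cacna1e (-0.04). On centring they changed for Myh6 (0.04), Nppb (0.08), Ndufs1 (0.23), Hk2 (0.05), Vegfa (0.27), Mki67 (0.03), Ccnd1 (0.25), Pecam1 (0.28), Cdh5 (0.22), Acta2 (0.09), Sema3a (0.23), Myog (-0.04) and Slitrk6 (-0.08). They also changed for Vegfa (0.05) with array weights, Hk1 (-0.02) for the median of probe sets, and Pdk1 (-0.001) and Ryr3 (0.0008) with the Y-linked covariate. Without the 3 hearts that stand apart they changed for Nppb (0.22), Cpt1a (-0.03), Hk2 (0.17), Vegfa (0.32), Pecam1 (0.06), Cdh5 (0.05) and Slitrk6 (-0.10). Leaving out 1 heart changed it for Ccnd1 (-0.05 to 0.03), Cdh5 (-0.14 to 0.03), Cpt1a (-0.08 to 0.11), Hk2 (-0.37 to 0.15), Myh11 (-0.64 to 0.09), Nppb (-0.32 to 0.12), Pdk1 (-0.06 to 0.1), Pecam1 (-0.09 to 0.08), Rbm20 (-0.1 to 0.12), Ryr3 (-0.08 to 0.04), Sema3a (-0.12 to 0.03), Sox10 (-0.21 to 0.04) and Vegfa (-0.18 to 0.3), given as the range over hearts. The cause was not tested. With the replicate block mutants had 2229 rises and 1839 falls, controls 1966 and 1567, with 1416 and 1004 shared and no difference between genotypes called, and hearts of the same number did not deviate together (r from -0.08 to 0.02).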
